A study of Mus musculus with 104 samples.

Results

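Among the 8 cortex libraries of the Pcdh20 line, 3 held much less complexin 2 RNA (Cplx2) than the other 5. The 3 were chosen by that level alone, as the libraries with Cplx2 under 900 CPM (reads scaled to all those counted in the library), and they are called the low libraries here. The series holds 13 lines of 8 libraries each, and no library of the other 12 lines fell under the threshold. Because a measured level and not a label defines the groups, Cplx2 itself is described without a test, and only genes the choice did not use were tested.

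Every animal in the study was a wild type C57BL/6 mouse aged 6 months, and the RNA was taken from dissected cortex as whole tissue. The 13 lines each carry a gene's name as the label of a group of control mice, with 4 females and 4 males per line, and the labels tag these groups as batches. The 3 low libraries came from females. The 5 other Pcdh20 libraries, called usual here, came from 1 female and 4 males, so that low Cplx2 and sex nearly coincide within the line. The labels give 1 library per mouse, number the mice so that each Pcdh20 female shares a number with a male of the line, do not say what a shared number marks, and place all 8 Pcdh20 libraries on plate 1. Pcdh20 replicates 1 to 4 are the females and replicates 5 to 8 the males; the low libraries are replicates 2, 3 and 4.

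Complexins are small presynaptic proteins that bind the assembled SNARE complex, the bundle of syntaxin, SNAP-25 and synaptobrevin that draws a synaptic vesicle onto the plasma membrane. They hold primed vesicles ready and support fast, calcium-triggered release together with synaptotagmin. Cplx1 and Cplx2 are the main forms in the forebrain, with Cplx2 common in excitatory cortical neurons and Cplx1 common in inhibitory neurons, while Cplx3 and Cplx4 are best known from retinal ribbon synapses and Cplx3 also marks neurons of the cortical subplate remnant.

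The low libraries held 26.87, 27.74 and 27.23 M reads and the usual ones 26.73 to 30.05 M, against a median of 28.38 M over the whole series. The chi-square of counts over genes was at least 4.35 per degree of freedom for every pair of Pcdh20 libraries, so none was taken for a repeat of another. Markers of cortical neurons were high in both groups. Camk2a, a kinase of excitatory neurons, stood at 5040 ± 256 CPM (SD, n = 3) in the low and 4956 ± 277 CPM (n = 5) in the usual libraries. Slc17a7, the vesicular glutamate transporter of cortical excitatory neurons, stood at 1418 ± 31.4 and 1438 ± 12.1 CPM. Reads of Y-linked genes were absent from all 4 libraries labelled female and present in all 4 labelled male.

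Cplx2 lies on chromosome 13 (chr13:54301964-54383923 in RefSeq, build GRCm38.p6). It stood at 757.84, 679.1 and 742.98 CPM in the low libraries (replicates 2, 3 and 4), which is 20365, 18838 and 20228 reads. The usual libraries held 1261.4 CPM in the remaining female (replicate 1) and 1301.8, 1296.9, 1238.4 and 1255.3 CPM in the males (replicates 5 to 8). The 3 low libraries lay close together, with an empty stretch between the highest of them and the lowest usual library. Within the line, 757.84 CPM was the nearest value under the threshold and 1238.4 CPM the nearest above it. The lowest library of any other line held 1124.6 CPM. The means were 726.6 ± 41.83 CPM (SD, n = 3) and 1271 ± 27.46 CPM (n = 5). The low libraries thus held 57.18% of the usual Pcdh20 level, and the usual libraries exceeded them 1.749-fold. In bulk tissue, fewer cells of a type and less RNA per cell cannot be told apart.

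The usual Pcdh20 libraries sat within the range of the rest of the series. The 96 libraries of the other 12 lines averaged 1250 ± 59.46 CPM, with a lowest value of 1124.6, a median of 1247.9 and a highest value of 1436.3 CPM. Against that mean the low libraries stood at 58.15%, and against the mean of the 48 libraries labelled female of the other lines at 59.44%. Among those other lines Cplx2 was slightly higher in libraries labelled male, at 1277 against 1223 CPM. The log2 difference was 0.06 ± 0.01 (SE, edgeR quasi-likelihood, adjusted p = 0.000569, 48 mice labelled as each sex). Of these libraries, 3 held sex-linked reads against their labelled sex and were kept in the comparison. The RefSeq and the Ensembl count table gave identical Cplx2 counts in 8 of 8 Pcdh20 libraries.

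**Figure D1:**
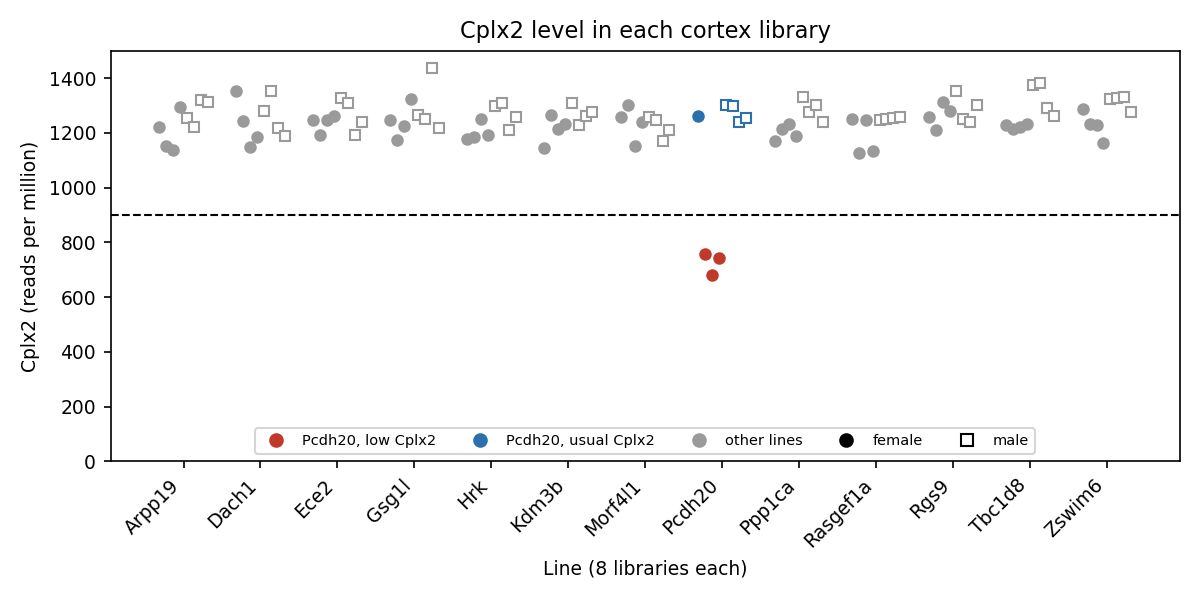
Cplx2 level (y axis, CPM) in every library, 8 per line (x axis); filled circles are females, open squares males, and the dashed line is the 900 CPM threshold. The 3 red points, the low Pcdh20 females at 679.1 to 757.84 CPM, lie alone under the line, and the usual Pcdh20 libraries lie among those of the other lines.

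The other complexins were next asked whether their levels differed where Cplx2 was low. Cplx1, the other main forebrain complexin, on chromosome 5, stood at 958, 1027 and 950 CPM in the low libraries, at 975 CPM in the usual female and at 924, 877, 966 and 897 CPM in the males. The groups overlapped, and the usual female lay within the range of the low females. The means were 978 ± 42.3 and 928 ± 42.7 CPM, and the log2 difference of low minus usual was 0.07 ± 0.07 (SE), with a 95% interval of -0.06 to 0.20 (edgeR quasi-likelihood, unadjusted p = 0.296). Cplx3, on chromosome 9, was far lower, at 8.03 ± 1.17 and 7.86 ± 0.90 CPM, with a log2 difference of 0.04 ± 0.11 and an interval of -0.17 to 0.26. Cplx4 had at most 1 read in any Pcdh20 library and was not tested.

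Per length, in the deposited FPKM (fragments scaled to transcript length and library depth), Cplx1 was the most abundant complexin in both groups. Cplx1 stood at 447.2 ± 20.46 FPKM in the low and 423 ± 18.69 FPKM in the usual libraries, and Cplx2 at 147.5 ± 8.489 and 257.9 ± 5.572 FPKM. Cplx3 stood at 2.81 ± 0.38 and 2.75 ± 0.30 FPKM. The summed complexin level was 598.7, 610.3 and 583.4 FPKM in the low libraries and between 665.2 and 701.6 FPKM in the usual ones. The sum includes Cplx2, so its gap is a description: the low libraries held 87.4% of the usual summed level, at 597.5 ± 13.51 against 683.6 ± 16.64 FPKM.

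**Figure D2:**
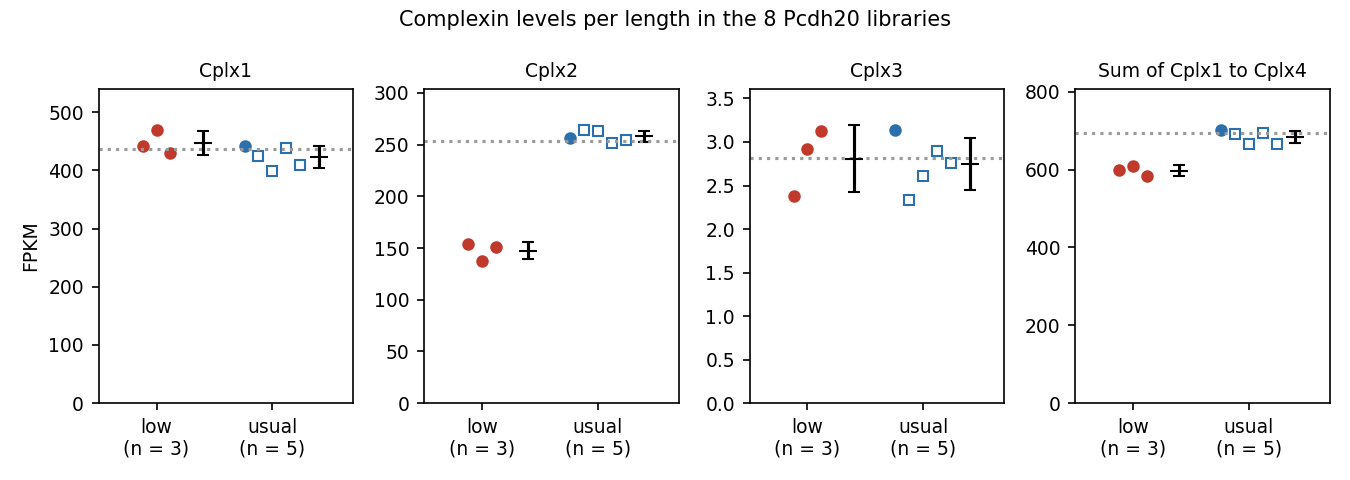
FPKM of Cplx1, Cplx2, Cplx3 and the sum of the 4 complexins (y axes, from 0) in the 3 low (red) and 5 usual (blue) Pcdh20 libraries; circles are females, open squares males, black bars the mean ± SD, and dotted lines the mean of the other 12 lines. Only Cplx2, which chose the groups, and the sum that contains it show a gap between the groups; Cplx1 and Cplx3 overlap.

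In the neighbourhood of Cplx2 on chromosome 13 no tested gene was called as differing between the groups. Of 15722 genes tested besides Cplx2 over the genome, edgeR's quasi-likelihood test called 0 higher and 0 lower in the low libraries at a Benjamini-Hochberg adjusted p under 0.05 (0%), and 361 had an unadjusted p under 0.05 (2.3%), 202 of them higher (1.28%) and 159 lower (1.01%). DESeq2 called 1 gene over the genome, the Y-linked Kdm5d, with 358 at an unadjusted p under 0.05. Within 1 Mb of the Cplx2 start, 24 of 26 listed genes passed the filter on low counts and could be tested. Of those 24, 0 were called, 13 were lower and 11 higher in sign, and 1 had an unadjusted p under 0.05. Within 5 Mb, 89 of 116 listed genes were tested, 0 were called and 2 had an unadjusted p under 0.05 (2.25%, against 2.3% over all genes). Their median log2 difference was -0.0086, with 48 lower and 41 higher in sign, against a median of -0.00092 over all tested genes. DESeq2 called 0 of these 89 genes as well, and 2 had an unadjusted p under 0.05 there.

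The nearest tested gene before Cplx2 was Hrh2, a histamine receptor gene, whose start lies 110 kb before that of Cplx2. It stood at 7.94, 8.77 and 9.003 CPM in the low libraries and between 7.73 and 10.1 CPM in the usual ones, with a log2 difference of -0.11 ± 0.11 (interval -0.33 to 0.11). The nearest after it was Thoc3, a subunit of the THO complex that couples transcription to mRNA export, 157 kb away. Thoc3 stood at 26.6, 23.9 and 24.2 CPM in the low and between 23.2 and 24.5 CPM in the usual libraries, a log2 difference of 0.05 ± 0.06 (interval -0.07 to 0.17). Both flanking genes thus had overlapping groups, and both intervals lay well above the fitted Cplx2 difference of -0.76.

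The next genes outward behaved likewise. Sfxn1, a mitochondrial serine carrier gene 230 kb before Cplx2, stood at 47.95 ± 0.37 and 48.81 ± 1.74 CPM (log2 difference 0.01 ± 0.04). Drd1a, the dopamine D1 receptor gene, stood at 5.72 ± 0.59 and 6.81 ± 1.07 CPM (-0.16 ± 0.14). On the other side, Cltb, which encodes a clathrin light chain used in vesicle recycling, stood at 125 ± 3.6 and 121 ± 3.7 CPM (0.04 ± 0.04). Rnf44, a RING finger gene, stood at 186 ± 4.5 and 184 ± 8.4 CPM (0.02 ± 0.04). Faf2, which acts in the removal of misfolded proteins from the endoplasmic reticulum, was the neighbour within 1 Mb with an unadjusted p under 0.05. It stood at 51.03, 48.9 and 54.5 CPM in the low libraries and between 52.9 and 57.6 CPM in the usual ones, so the groups overlapped, and its log2 difference of -0.09 ± 0.04 (unadjusted p = 0.0265) did not pass the adjustment over all genes.

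Over the 10 nearest tested genes on each side, 10 were lower and 10 higher in sign, and the low and usual groups overlapped for all 20. The 16 of them with a mean level of 1 or more on the log2 CPM scale stood at 83.9% (Drd1a) to 107% (Nop16) of the usual level in the low libraries. For 18 of the 20 the 95% interval lay above the Cplx2 difference. The exceptions were Msx2 (log2 difference -0.32 ± 0.55) and Cdhr2 (-0.51 ± 0.27), both under 1 CPM, whose intervals included it.

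Farther out, 81 of the 89 tested genes within 5 Mb had an interval above the Cplx2 difference. Groups that did not overlap were seen for 0 of the 89 in the lower and 1 in the higher direction, against 1.28% and 1.44% of all tested genes. That gene was Pcbd2, 1425 kb away, at 3.41 CPM in the low and 2.89 CPM in the usual libraries; it was chosen after its values were seen. Over the whole of chromosome 13, 574 genes were tested, 0 were called and 18 (3.14%) had an unadjusted p under 0.05. Zfp72, a zinc finger gene 20070 kb from Cplx2, was the gene of this chromosome with the smallest p. It stood at 3.53, 3.70 and 3.59 CPM in the low libraries and between 4.01 and 4.90 CPM in the usual ones. The groups did not overlap, and the log2 difference was -0.36 ± 0.11 (unadjusted p = 0.00197, adjusted p = 1).

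**Figure D3:**
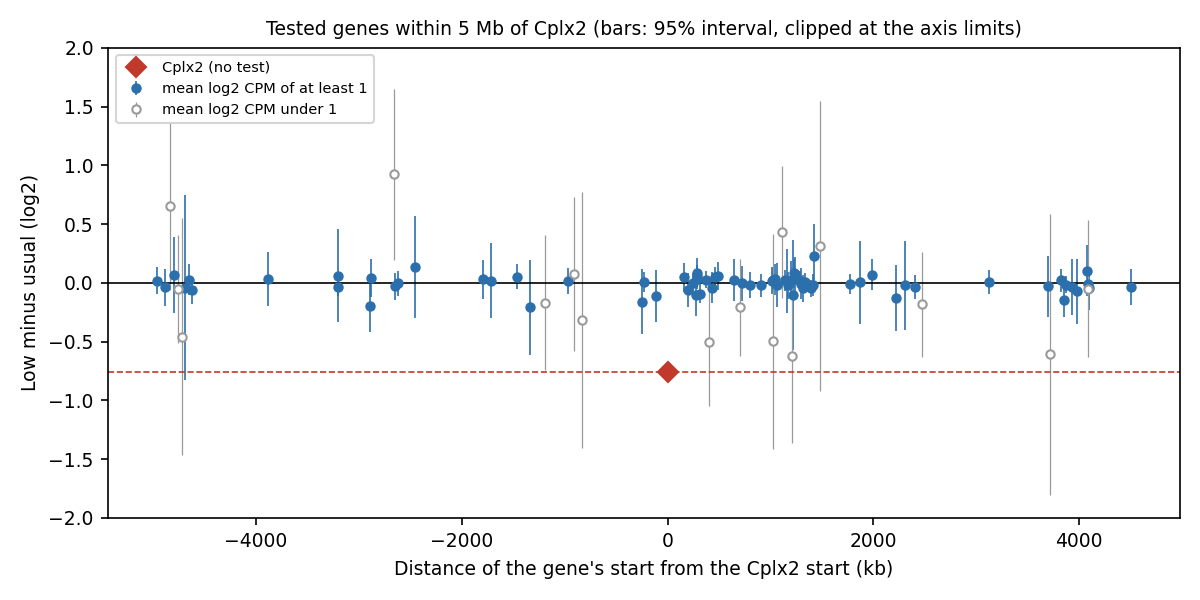
Log2 difference of low minus usual libraries (y axis) for the 89 tested genes within 5 Mb of Cplx2, by distance of the gene's start from the Cplx2 start in kb (x axis); bars are 95% intervals, filled points average 1 or more in log2 CPM, and the dashed line marks the Cplx2 difference. The well-measured neighbours on both sides lie near 0, apart from Cplx2 at -0.76.

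The proteins that complexin 2 works with were examined by role. The 60 genes of 3 lists (SNARE core and fusion regulators, active zone scaffolds, synaptic vesicle proteins) were all tested and 0 were called by edgeR's quasi-likelihood test; 35 were lower and 25 higher in sign, and 1 had an unadjusted p under 0.05. Their differences ran from -0.25 to 0.13 on the log2 scale. For 59 of the 60 the 95% interval lay within a 1.5-fold change in either direction, the exception being Doc2b, and for all 60 it lay above the Cplx2 difference.

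Among the 24 SNARE genes and fusion regulators the median log2 difference was -0.011, and 10 were higher and 14 lower in sign. Snap25, the neuronal SNAP-25 gene, stood at 3835 ± 162 CPM in the low and 3785 ± 97.6 CPM in the usual libraries (log2 difference 0.04 ± 0.05). Syt1, the calcium sensor of fast release in forebrain neurons, stood at 2210 ± 43.7 and 2274 ± 133 CPM (-0.04 ± 0.05). Stx1a, one of the plasma membrane syntaxins, stood at 390 ± 6.6 and 388 ± 23.9 CPM (0.01 ± 0.04). These partners of complexin in the fusion complex thus differed by less than 2 standard errors.

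Members with groups that did not overlap were Doc2b, Napa and Unc13c, 3 of 24, against 2.72% of all tested genes in either direction. Doc2b, a calcium-binding protein of spontaneous release, stood at 9.19, 8.13 and 8.82 CPM in the low and between 9.44 and 11.1 CPM in the usual libraries, with a log2 difference of -0.25 ± 0.17 (interval -0.59 to 0.08). Unc13c, a vesicle priming factor of the Munc13 family, stood at 28.7, 28.8 and 30.9 CPM against 23.8 to 28.5 CPM (0.13 ± 0.09). Napa, the alpha-SNAP gene needed to take SNARE complexes apart, stood at 285 ± 4.7 and 275 ± 4.5 CPM (0.05 ± 0.05). None of the 3 had an unadjusted p under 0.05. Vamp1, a synaptobrevin gene, stood at 327, 350 and 318 CPM in the low females and 326 CPM in the usual female, with the 4 males at 289 to 312 CPM; the usual female lay among the low females.

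Among the 12 active zone scaffolds, the proteins that hold vesicles and calcium channels at the release site, 5 were higher and 7 lower in sign with a median of -0.0068. Erc1, an ELKS scaffold gene, stood at 65.2, 60.7 and 69.7 CPM in the low and between 67.1 and 73.4 CPM in the usual libraries. These ranges overlapped, and the log2 difference of -0.15 ± 0.06 (unadjusted p = 0.012, adjusted p = 1) was the only one of the 60 with an unadjusted p under 0.05. Its relative Erc2 had a log2 difference of -0.07 ± 0.05 and the liprin gene Ppfia2 one of -0.09 ± 0.06.

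Among the 24 synaptic vesicle genes, 10 were higher and 14 lower in sign with a median of -0.0064 and a range of -0.10 to 0.05. Rab3c, a small GTPase of the vesicle surface, stood at 440 ± 26.8 CPM in the low and 455 ± 38.5 CPM in the usual libraries (log2 difference -0.10 ± 0.06). Syn3, a synapsin gene, had a log2 difference of -0.09 ± 0.10. The summed level of the vesicle list ran from 10600 to 10980 CPM in the low and from 10580 to 11200 CPM in the usual libraries.

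**Figure D4:**
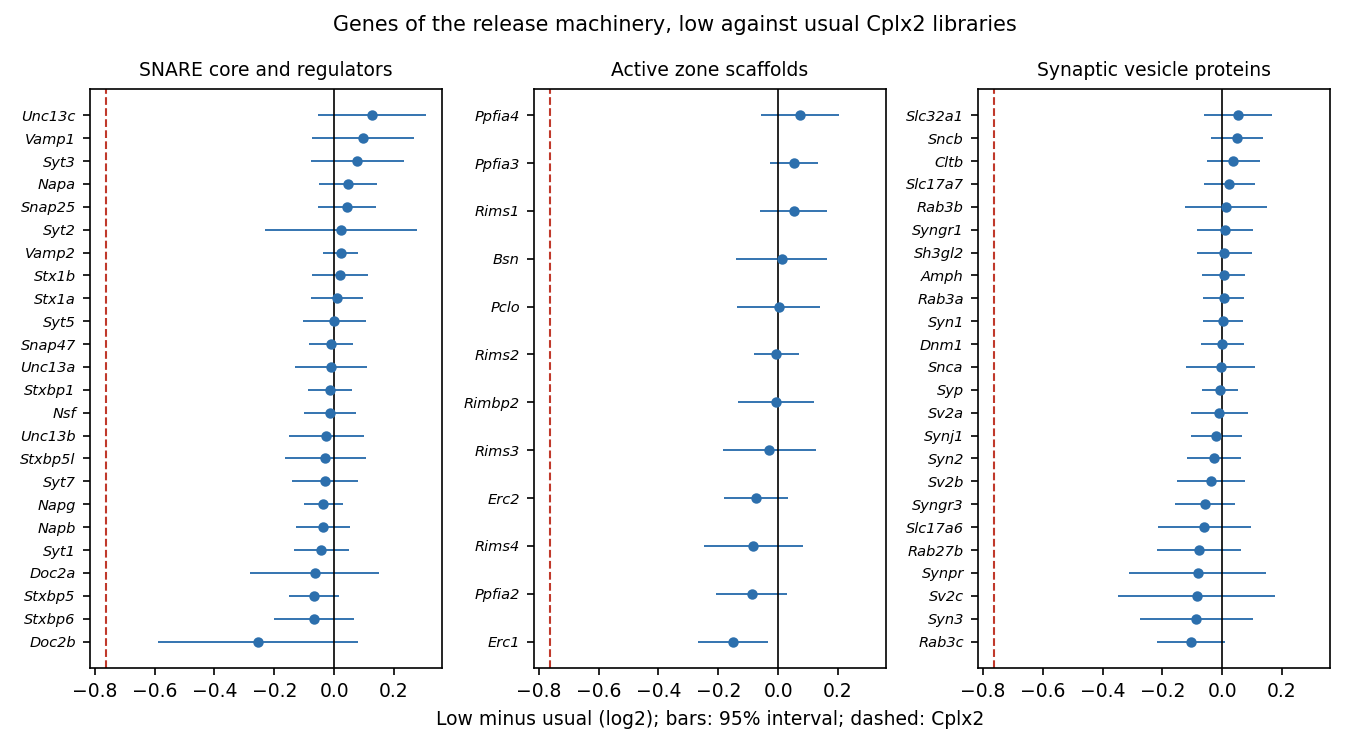
Log2 difference of low minus usual libraries (x axis) with its 95% interval for the 24 SNARE and fusion regulator genes, 12 active zone scaffolds and 24 synaptic vesicle genes (y axes); the dashed line marks the Cplx2 difference of -0.76. No interval reaches the Cplx2 difference.

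The size of the Cplx2 difference, which the choice of libraries fixed, serves below only as a mark on the scale for the other genes. The median standard error of a log2 difference was 0.0873 over all tested genes and 0.0545 over the 6135 genes averaging 5 or more on the log2 CPM scale. Of the 12844 genes averaging 1 or more on that scale, 12760 (99.3%) had a 95% interval above the Cplx2 difference, and for 12460 (97%) the interval lay within a 1.5-fold change. At or past a fall of the size of Cplx2 were 4 of these genes: Ddx3y, Eif2s3y, Kdm5d and Uty. All 4 lie on the Y chromosome and stood at 0 CPM in the low libraries, which are all female. The usual female had no reads of them either, and the fit holds a sex term. Their fitted differences had standard errors near their own size (Ddx3y -7.26 ± 6.28, Kdm5d -6.68 ± 5.67), so these falls are not read as a difference between low and usual libraries. On the higher side Mid1 passed that size (log2 difference 0.76 ± 0.29). The fitted value of Ttr was 1.73 ± 2.26, although its group means of 0.35 CPM (low) and 0.37 CPM (usual) had the opposite order. Among the 6135 more abundant genes, 0 passed it in either direction.

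The genes with the smallest unadjusted p were mostly of low abundance, and none passed the adjustment. En2, a homeobox gene of the midbrain and cerebellum, stood at 0.60 ± 0.08 CPM in the low and 0.30 ± 0.15 CPM in the usual libraries (unadjusted p = 0.000943, adjusted p = 1). Rpusd3, a mitochondrial pseudouridine synthase gene, stood at 7.24, 6.98 and 7.41 CPM against 4.98 to 7.50 CPM (log2 difference 0.32 ± 0.10, unadjusted p = 0.00108), with overlapping groups. Phpt1, a histidine phosphatase gene, stood at 28.96 ± 1.49 and 25.74 ± 1.74 CPM (0.17 ± 0.06). Zfp689, a zinc finger gene, stood at 6.76, 6.90 and 6.26 CPM against 4.76 to 6.17 CPM (0.30 ± 0.10). It was, with Zfp72, 1 of 2 among the 10 smallest p whose groups did not overlap, against 2.72% of all tested genes in either direction. The choice by p in the same comparison itself favours such groups.

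The genes most like Cplx2 over the 8 libraries were taken by Pearson's r of log2 CPM, as a description only, since the 8 libraries form 2 clusters in Cplx2. They were 1700024P16Rik, Pdzk1, March5, Gxylt1 and Tmem45a. March5, a ubiquitin ligase gene of the mitochondrial outer membrane, stood at 73.2, 74.1 and 74.3 CPM in the low and between 78.0 and 79.8 CPM in the usual libraries (log2 difference -0.10 ± 0.04). Gxylt1, a glycosyltransferase gene acting on Notch, stood at 21.99, 22.37 and 21.6 CPM against 23.9 to 24.7 CPM (-0.12 ± 0.07). Both split in the same way as Cplx2 but by a much smaller step, at 93.4% and 90.1% of the usual level. The other 3 lay under 2 CPM. The choice by r itself favours such a split, so the split is not a separate result. Over all tested genes, 201 of 15722 (1.28%) had groups that did not overlap in the lower direction.

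**Figure D5:**
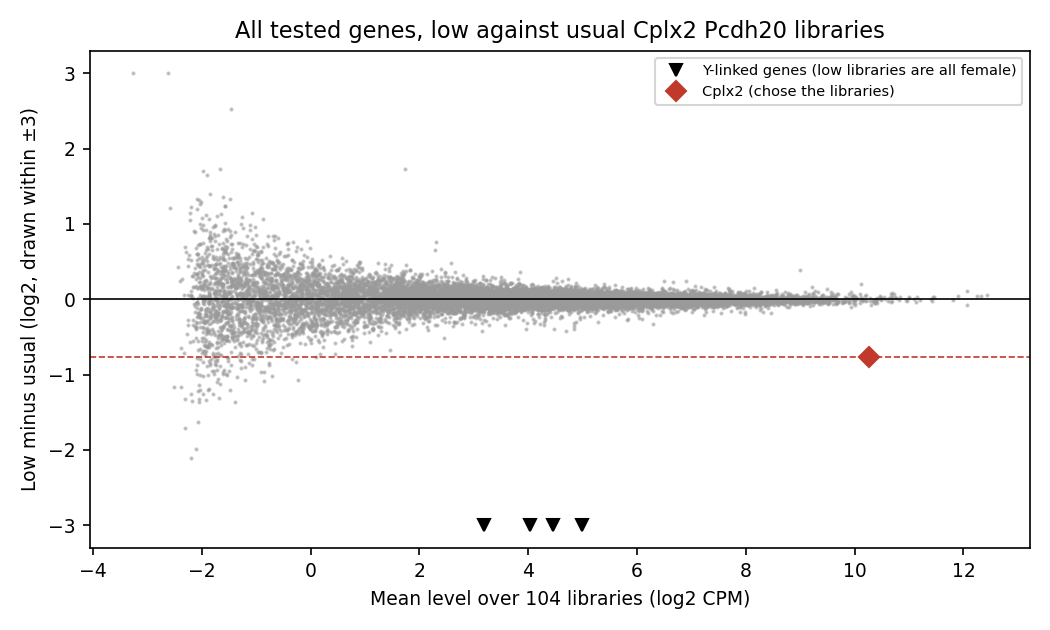
Log2 difference of low minus usual libraries (y axis, drawn within ±3) against mean level over all libraries of the series in log2 CPM (x axis) for all tested genes. Cplx2 is drawn in red, its difference fixed by the choice of libraries. The 4 black triangles are Y-linked genes, of which the low females and the usual female had no reads.

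Markers of cell types and genes of activity and stress were compared in the same way. In each of these lists 0 genes were called by edgeR's quasi-likelihood test or by DESeq2, and the only members with an unadjusted p under 0.05 in edgeR were the interneuron genes Htr3a and Gad2. The 14 pan-neuronal and excitatory markers summed to 17010 to 17320 CPM in the low and 16720 to 17360 CPM in the usual libraries, with a median log2 difference of 0.031. The interneuron markers summed to 1170 to 1239 and 1230 to 1258 CPM. Htr3a, the serotonin receptor gene of one interneuron class, stood at 4.23, 5.97 and 4.74 CPM in the low and between 5.91 and 7.93 CPM in the usual libraries, with overlapping groups (log2 difference -0.31 ± 0.13, unadjusted p = 0.0221). Gad2, an enzyme of GABA synthesis, stood at 165 CPM in the low and 181 CPM in the usual libraries, also with overlapping groups (-0.11 ± 0.05, unadjusted p = 0.0325). Markers of neighbouring regions were present at overlapping levels in both groups. The thalamic list summed to 198.1 to 220.5 CPM in the low and 196.0 to 213.4 CPM in the usual libraries, and the striatal list to 273.7 to 302.5 and 263.5 to 323.2 CPM. The hippocampal list summed to 120.9 to 129.8 and 125.6 to 156.2 CPM. The thalamic marker Gbx2 and the striatal marker Isl1 had no read in any of the 8 libraries, and Ttr, the choroid plexus transthyretin gene, stood at 0.35 ± 0.13 and 0.37 ± 0.14 CPM.

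Myelin genes were the list with the largest one-sided shift of the cell type lists tested on 10 or more genes. All 10 mature oligodendrocyte markers were higher in sign in the low libraries, with a median log2 difference of 0.16, and 3 (Cldn11, Mbp and Mobp) had groups that did not overlap, against 1.44% of all tested genes in the higher direction. Mbp, the myelin basic protein gene, stood at 1300, 1244 and 1179 CPM in the low and 1126, 1044, 935, 1141 and 1098 CPM in the usual libraries. The log2 difference was 0.20 ± 0.11 (interval -0.01 to 0.41), less than 2 standard errors, and no member had an unadjusted p under 0.05. The summed list ran from 2302 to 2607 CPM in the low and from 1847 to 2310 CPM in the usual libraries, within the 1472 to 2686 CPM of the other lines. Its part in the Cplx2 level was not tested. One-sided signs were also seen in other lists. All 7 oligodendrocyte precursor markers were higher in sign (median log2 difference 0.098). Of the 10 endothelial markers 9 were higher and 1 lower (median 0.057). All 10 endoplasmic reticulum chaperone genes were lower in sign (median -0.049).

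Immediate early genes, which neuronal firing induces, were lower in sign for 19 of 20 members, with a median log2 difference of -0.16 and a median standard error of 0.314. Their sum was 2306 to 2841 CPM in the low and 2484 to 3703 CPM in the usual libraries. Egr2, an inducible transcription factor gene, stood at 47.4 CPM in usual replicate 6 against 14.9 to 25.8 CPM in the other 7 libraries. Nr4a1 was the 1 member of 20 with groups that did not overlap, against 1.28% of all tested genes in the lower direction, at 159 to 243 CPM in the low and 244 to 395 CPM in the usual libraries (-0.20 ± 0.30). The median standard error of these genes was thus larger than the size of their median difference. The spread between mice was not compared with the difference for the list as a whole.

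The gene whose name the line carries did not follow Cplx2. Pcdh20, a protocadherin gene, stood at 36.03, 24.8 and 29.9 CPM in the low libraries, at 39.8 CPM in the usual female and at 31.6, 44.6, 22.2 and 19.7 CPM in the males. The log2 difference was -0.08 ± 0.21. Ide and Gabra2, both known to vary among C57BL/6 stocks, also overlapped between the groups, at 98.5 ± 18.2 against 103 ± 19.7 CPM for Ide and 30.5 ± 2.4 against 32.2 ± 2.9 CPM for Gabra2. Of the 7 substrain genes, Nnt, the mitochondrial transhydrogenase gene that is mutated in some C57BL/6 stocks, had groups that did not overlap, against 1.44% of all tested genes in the higher direction. It stood at 22.58, 22.66 and 22.38 CPM in the low and between 21.06 and 21.84 CPM in the usual libraries, a log2 difference of 0.04 ± 0.08 (unadjusted p = 0.581).

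The last comparisons set each Pcdh20 group against the mean of the other 12 lines; they share libraries with the first comparison and are given side by side. For the low libraries edgeR's quasi-likelihood test called 0 genes higher and 0 lower (0%), with 325 of 15722 at an unadjusted p under 0.05; DESeq2 called 1 gene, the Y-linked Kdm5d. For the usual libraries it called 1 gene higher (0.00636%) and 0 lower, with 484 at an unadjusted p under 0.05. That gene was Stxbp4, whose product binds syntaxin 4 in vesicle trafficking outside the synapse. It stood at 32.6 ± 6.0 CPM in the usual libraries, 29.04 ± 2.7 CPM in the low ones and 26.4 ± 2.2 CPM in the other lines (usual minus other 0.32 ± 0.05, adjusted p = 0.00106). Its call was lost without replicate 1 or replicate 6, which left 0 genes called higher, and without replicate 5, which left Adamts17 alone. With the shared number as a block the Stxbp4 value was 0.26 ± 0.05 (adjusted p = 0.108) and 0 genes were called higher. Stxbp4 had a log2 difference of -0.19 ± 0.09 between low and usual libraries (unadjusted p = 0.0357), with overlapping groups. Cplx1 differed from the other lines by 0.03 ± 0.05 in the low and -0.04 ± 0.04 in the usual libraries.

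Restricting the fit to libraries labelled female, which sets the 3 low libraries against the 1 usual Pcdh20 female with the spread taken from the other lines, again called 0 genes in either direction, with 564 of 15546 at an unadjusted p under 0.05. In that fit the lone usual female is assumed to vary like the libraries labelled female of other lines, and Cplx1 had a log2 difference of 0.01. Those libraries include Rasgef1a replicate 3 and Rgs9 replicate 3, whose sex-linked reads went against the label.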

How the data were processed

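RNA was extracted from dissected cortex with a Qiagen RNeasy kit and made into stranded TruSeq libraries, per the labels' protocols. Alignment and counting tools in the submitters' processing notes are HTSeq 0.10.0 and STAR 2.7.3a, with mm10 and GRCm38 as builds; counting mode and filters are not given in the sources used here. The authors deposited whole-number read counts per RefSeq symbol (24060 genes) and per Ensembl gene, and FPKM per RefSeq symbol, scaled by the authors to gene length and depth. Of the Ensembl counts 19563 genes were used, without a last, broken line.

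Low libraries were those with Cplx2 under 900 CPM of the column total; other CPM use TMM-scaled totals. RefSeq counts of the whole series were fitted with edgeR 4.0.16 (glmQLFit and glmQLFTest, TMM, filterByExpr by line and sex) in R 4.3.3, with terms for line, sex and the low libraries. This kept 15723 genes. P-values were Benjamini-Hochberg adjusted over all tested genes but Cplx2, and a value under 0.05 made a call. Intervals are 95%, from standard errors taken as the log2 difference over the square root of its F. The script was tested on simulated data. The sex term is estimated over all lines, 3 libraries of other lines held sex-linked reads against their labelled sex, and p-values treat all mice as independent. Each Pcdh20 female shares the number in its title with 1 male. The titles number the females and the males of the series separately in running order, so a shared number need not mark a pair. Over 6122 well-measured genes, deviations from the means of the low and usual groups correlated at 0.185 to 0.476 between libraries sharing a number. Of the 4 females, 3 matched their own number best among the males. With deviations taken from the mean of each sex instead, the correlations were 0.288 to 0.57. All 4 females then matched their own number best. Whether the numbers pair mice cannot be told from these values, and a fit with the number as a block was added as an alternative. Gene positions are from RefSeq (GRCm38.p6; 15658 tested genes matched); distances are from start to start. No strand setting is stated, so reads of overlapping or antisense genes may be shared.

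Genes were named by a rule: the complexins, the 10 tested genes on each side of Cplx2, the 10 smallest p, the 5 genes most like Cplx2, Pcdh20, called genes, and up to 4 members per list (the largest differences). Named besides these, after their values were seen, were Camk2a, Slc17a7, Gad2, Syt1, Stx1a, Napa, Nr4a1, Nnt, Cldn11, Pcbd2, Mid1, the Y-linked genes and the markers at 0. The members, the lists and the tests were chosen with earlier results of these data known. Alternatives used DESeq2 1.42.0, other scaling, no filter, the 8 Pcdh20 libraries alone, no sex term, plate 1 alone, Ensembl counts, limma 3.58.1 on log2(FPKM + 1) and log2(FPKM + 0.1), and each Pcdh20 replicate left out; a fit without the 3 libraries against their labelled sex, a fit of females alone and the block were chosen after seeing the data. Lists not described in the text had 0 called genes. For cell types these were upper and deep layer excitatory neurons, erythroid cells, mural cells, microglia, astrocytes, and meninges and fibroblasts. The others were circadian clock, heat shock, Atf4 and amino acid stress, glucocorticoid-responsive, interferon-stimulated and nuclear respiratory chain genes. The C57BL/6 substrain list also had 0 called genes.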

Additional observations from a re-analysis of the deposited data

Results flagged for a closer look

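Among the 147 named genes, 9 had 1 of the 8 Pcdh20 libraries separated from the nearest of the others by a gap past Dixon's 95% limit for the group's range; chance gives about 1 in 20. In the low libraries, replicate 2 was highest for C1ql1 (4.89 CPM, next 3.759), Itm2a (42.98 CPM, next 38.01) and Thoc3 (26.62 CPM, next 24.5), and replicate 3 was lowest for Chac1 (6.797 CPM, next 8.484). In the usual libraries, replicate 6 was highest for Egr2 (47.43 CPM, next 25.81), Gfap (99.02 CPM, next 76.17), Wfs1 (112.3 CPM, next 87.47) and Msx2 (0.50 CPM, next 0.30), and replicate 1 for Hsph1 (313.4 CPM, next 297.5). Thoc3 and Msx2 are neighbours of Cplx2 on chromosome 13, and neither differed between the groups beyond its error.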

How the results depend on the processing

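In the comparison of low with usual libraries the count of called genes was 0 higher and 0 lower under all alternatives run, except 1 lower with DESeq2 (Kdm5d, a Y-linked gene), and the count within 5 Mb of Cplx2 was 0 under all of them. Against the other lines, the low libraries had 1 gene lower with DESeq2 (Kdm5d) and 1 higher with no filter on low counts (8430436N08Rik), and 0 otherwise. The usual libraries had 0 to 1 genes higher and 0 to 1 lower on leaving out a replicate each: 0 higher without replicate 1 or 6, Adamts17 in place of Stxbp4 as the called gene without replicate 5, and Rpusd3 lower without replicate 8. In females alone and with the replicate block (the number shared by a female and a male) 0 were called higher. The causes were not tested. Of 2465 differences of named genes under the alternatives set out in the methods, 2367 moved by less than 1 standard error and 98 by more, with 0 crossing the threshold. Under the settings added after seeing the data, 79 of 437 moved by more. The replicate block ended the call of Stxbp4 and changed no other call of the 3 comparisons; with it 491 genes had an unadjusted p under 0.05 between low and usual libraries. Only 1 usual Pcdh20 female limits the separation of low Cplx2 from sex, and the small number of low libraries limits precision.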
